A study of Homo sapiens with 10 samples.

Results

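The core proteins of the spliceosomal small nuclear ribonucleoproteins (snRNPs) were followed as mRNAs in HEK293 cells, an established human embryonic kidney line. The listed genes were the Sm ring genes SNRPB, SNRPD1, SNRPD2, SNRPD3, SNRPE, SNRPF and SNRPG and the U1-specific genes SNRPA, SNRPC and SNRNP70. They were listed by name and not by a cutoff on measured values, although earlier results of these data were known by then. Of the 10, 9 were found through the RefSeq accession of their transcript, among 24994 genes in the deposited files. SNRPA was not analysed here. Each was represented by 1 RefSeq transcript: NM_003091 for SNRPB, NM_006938 for SNRPD1, NM_177542 for SNRPD2, NM_004175 for SNRPD3, NM_003094 for SNRPE, NM_003095 for SNRPF, NM_003096 for SNRPG, NM_003093 for SNRPC and NM_003089 for SNRNP70. All 9 passed the filter on low counts.

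Polyadenylated RNA was sequenced in 10 libraries, of which 4 came from irradiated cells. The groups with duplicate libraries, A and B, were cells given 1 mM 4-thiouridine (4SU) for 12 to 14 h and crosslinked at 365 nm (4SU with 365 nm), cells given 4SU without crosslinking (4SU alone), and cells crosslinked at 254 nm without 4SU (254 nm). The last duplicate group was cells with neither treatment (untreated). A further pair held 1 library of cells transfected with an siRNA against HuR, the RNA-binding protein encoded by ELAVL1, and 1 library of cells transfected with an siRNA against GFP, a protein foreign to human cells. 4SU is a uridine analogue that cells build into new RNA and that crosslinks to bound protein under 365 nm light, whereas 254 nm light acts on the natural bases. All cells were of the same line, and no label states whether libraries A and B were grown separately. The p-values therefore reflect only the spread between these libraries, shared in large part across genes, and that spread may be technical.

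As background, Sm proteins assemble in the cytoplasm into a ring around the Sm site of the U1, U2, U4 and U5 small nuclear RNAs, with the help of the SMN complex. Assembled particles are imported into the nucleus, where they remove introns from pre-mRNA. The U1 particle recognises the 5′ splice site, and SNRPA, SNRPC and SNRNP70 encode proteins found in it and not in the other particles.

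The libraries of the duplicate groups held 2238569 to 3099769 tags, and the siRNA pair held 9016803 tags with HuR siRNA and 8688262 with GFP siRNA. TMM factors, which rescale each library by a trimmed mean over genes, were 0.372 and 0.4997 in 4SU with 365 nm, 1.55 and 1.76 in 4SU alone, 0.988 and 0.780 in 254 nm, and 1.63 and 1.58 in untreated cells. The choice of scaling moved the fold changes of both crosslinking comparisons: the median gene stood at a log2 fold change of -0.50 in 4SU with 365 nm over 4SU alone with TMM factors, and at -2.40 when only library totals were used. For 254 nm over untreated cells the same medians were -0.14 and -0.998. Of 7 HEK293 markers, IRS4, NEFL, KRT18 and NEFM were detected in all 10 libraries, and NEFM, VIM, KRT8 and PAX2 stayed at or below 15.5 CPM (tags per 1000000 tags of the library). Markers of leukocytes, fibroblasts and endothelium (PTPRC, COL1A2 and PECAM1) reached at most 4 tags in any library.

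Sequence upstream of the genes was read first, as a description. Whether it bears on the fold changes below was not tested. RefSeq promoter windows of the GRCh38.p14 build were available for 6 of the 9 genes, each 250 bases that end just before the annotated start. Of these, 4 are shown, written 5′ to 3′ along the gene's strand in lower case, with capitals marking matches on either strand to the CCAAT box or the ETS site.
SNRPB promoter, chr20:2470790-2471039, minus strand: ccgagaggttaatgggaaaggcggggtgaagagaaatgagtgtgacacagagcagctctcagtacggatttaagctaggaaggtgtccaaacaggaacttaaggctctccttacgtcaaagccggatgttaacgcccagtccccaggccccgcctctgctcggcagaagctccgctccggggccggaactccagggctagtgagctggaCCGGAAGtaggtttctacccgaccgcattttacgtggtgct
SNRPD2 promoter, chr19:45692317-45692566, minus strand: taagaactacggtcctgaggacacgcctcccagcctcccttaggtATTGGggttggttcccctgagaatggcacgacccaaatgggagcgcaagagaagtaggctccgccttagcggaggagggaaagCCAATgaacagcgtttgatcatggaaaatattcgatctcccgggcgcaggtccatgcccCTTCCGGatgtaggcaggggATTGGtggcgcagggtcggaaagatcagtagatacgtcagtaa
SNRPF promoter, chr12:95858702-95858951, plus strand: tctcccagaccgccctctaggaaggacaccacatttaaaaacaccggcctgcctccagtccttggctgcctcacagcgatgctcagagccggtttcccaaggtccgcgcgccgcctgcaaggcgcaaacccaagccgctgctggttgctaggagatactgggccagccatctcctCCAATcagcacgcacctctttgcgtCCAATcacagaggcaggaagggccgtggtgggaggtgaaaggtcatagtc
SNRNP70 promoter, chr19:49085201-49085450, plus strand: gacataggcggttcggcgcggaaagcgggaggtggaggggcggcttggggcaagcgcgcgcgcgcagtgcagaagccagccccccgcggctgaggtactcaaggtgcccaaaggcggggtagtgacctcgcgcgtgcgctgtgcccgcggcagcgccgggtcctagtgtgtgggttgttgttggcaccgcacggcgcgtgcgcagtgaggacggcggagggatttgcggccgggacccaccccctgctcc

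None of the motifs searched occurred in all 6 windows. The ETS site CCGGAAG was present in 3 of the 6 windows, those of SNRPB, SNRPD2 and SNRPC, and in 8.52% of all 35116 promoter windows of the same length. Those 35116 windows were not limited to 1 per gene or to windows outside the gene, as the 6 were. The CCAAT box CCAAT was present in 2 of the 6, SNRPD2 with 3 matches and SNRPF with 2, and in 32.0% of all windows. The TATA box TATAAA was present in 1 of the 6, that of SNRPC, and in 10.7% of all. No window of the 6 held the YY1 site AAGATGG (3.70% of all), the NRF1 site GCGCATGC (2.63%) or the ZBTB33 site TCTCGCGA (1.03%). The SNRNP70 and SNRPD3 windows matched none of the motifs searched. In SNRPC the matches to CCGGAAG lay on opposite strands and overlapped. All searches covered both strands, and a match is a description of letters in this window only. SNRPD2 had 3 annotated starts and SNRPD3 had 2, and only 1 window of each gene was searched.

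Levels per transcript length were set out before any comparison, since only these can be compared between genes. In untreated cells SNRPD2 was the highest, at 432 ± 39.5 normalised CPM (CPM adjusted by the TMM factor) per 1000 nt, and SNRPB followed at 351 ± 111 (SD, n = 2). Their libraries overlapped. The next group, SNRNP70 at 147, SNRPF at 141, SNRPD3 at 130 and SNRPC at 115, overlapped neighbour by neighbour. SNRPG at 73.2 and SNRPD1 at 55.5 also overlapped, and SNRPE was lowest at 29.4 ± 0.486. The highest level was 14.7 times the lowest. As background, the Sm ring itself holds its proteins in equal numbers.

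The spread between genes was wider in the crosslinked libraries. The ratio of the highest to the lowest level per length was 49.1 in 4SU with 365 nm and 16.9 in 4SU alone. It was 21.8 in 254 nm and 14.7 in untreated cells. SNRPD2 had the highest mean in all 4 groups and the highest level in both siRNA libraries, but in 4SU alone its libraries overlapped those of SNRPB, as they did in untreated cells. Of the summed level per length of the 9 genes, SNRPD2 made up 59.9% and 48.3% in 4SU with 365 nm, against 34.4% and 29.6% in 4SU alone. Its part was 39.0% and 43.1% in 254 nm, against 29.1% and 29.6% in untreated cells. SNRPD1 took the lowest place in both crosslinked groups, with 160 normalised CPM per 1000 nt in 4SU with 365 nm and 136 in 254 nm, where its libraries overlapped those of SNRPE at 163. The plot of levels per length shows every library.

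**Figure D1:**
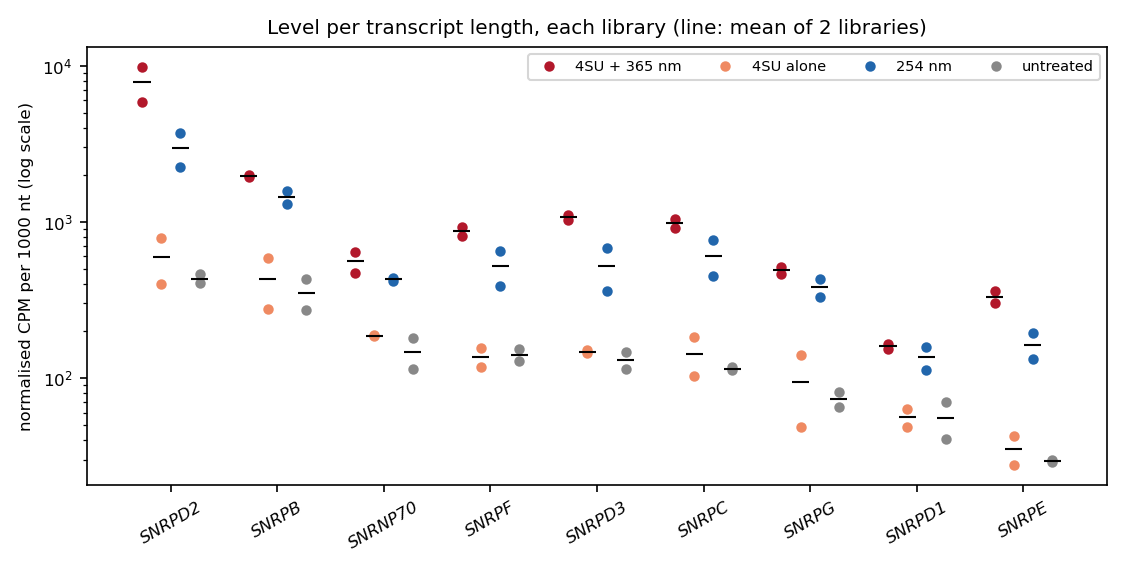
Level of each gene per transcript length, as normalised CPM per 1000 nt on a log axis, with a dot per library, a line at the mean of the 2 libraries and colours for the 4 groups. SNRPD2 has the highest mean in every group, and with these TMM factors the red and blue dots of the crosslinked libraries lie above the orange and grey dots of the others for each gene.

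Crosslinking at 365 nm with 4SU went with higher levels of all 9 mRNAs with TMM factors, whereas SNRPD1 and SNRNP70 came out lower when only library totals were used. With TMM factors 9 of 9 genes rose in 4SU with 365 nm over 4SU alone, with log2 fold changes of 1.51 to 3.72 and a median of 2.67, a 6.36-fold difference. In the same test 26.1% of the 13731 tested genes were higher and 33.8% lower, 3588 and 4636 genes with TMM factors, against 1019 and 9965 with library totals. Adjusted p ranged from 3.77e-09 to 0.000826 (edgeR quasi-likelihood test, two-sided, Benjamini-Hochberg adjustment over all tested genes). For all 9 genes both normalised libraries of 4SU with 365 nm lay above both of 4SU alone, as they did for 33.1% of all tested genes. As plain shares of the tags this held for 5 of the 9 and for 11.2% of all, and SNRPD1 lay below. Counts are relative to the other tags of a library, so a change in the absolute amount per cell cannot be read from them.

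Among the Sm ring genes, SNRPD2 encodes the Sm protein that pairs with SNRPD1 in an early assembly intermediate. It had 3209 and 2569 CPM in 4SU with 365 nm, against 1069 and 613 in 4SU alone. Both crosslinked libraries lay above both others. Its log2 fold change was 3.72 ± 0.53 (approximate SE), and 1.77 with library totals at an adjusted p of 2.59e-05.

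SNRPE, whose protein joins those of SNRPF and SNRPG in another intermediate, had 212 and 241 CPM in 4SU with 365 nm, against 105 and 76.6 in 4SU alone. The groups were well apart, and the log2 fold change was 3.23 ± 0.38, or 1.31 with library totals. SNRPF had 276 and 327 CPM in 4SU with 365 nm, against 194 and 164 in 4SU alone. Here too the groups did not overlap, with a log2 fold change of 2.67 ± 0.38. With library totals it was 0.74 and missed the threshold (adjusted p = 0.0736). SNRPG had 116 and 140 CPM in 4SU with 365 nm, against 130 and 51.1 in 4SU alone, so that on this scale the groups overlapped. Its log2 fold change was 2.39 ± 0.38 with TMM factors and 0.50 with library totals (adjusted p = 0.241).

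SNRPB and SNRPD3 encode the Sm proteins that join the ring as a pair. SNRPD3 had 572 and 705 CPM in 4SU with 365 nm, against 320 and 348 in 4SU alone, without overlap. Its log2 fold change was 2.86 ± 0.42. SNRPB had 848 and 1113 CPM in 4SU with 365 nm, against 1034 and 552 in 4SU alone, with overlapping groups. The log2 fold change of SNRPB was 2.19 ± 0.45 with TMM factors and 0.30 with library totals (adjusted p = 0.483). SNRPN, the paralogue of SNRPB, was listed with at most 3.5 tags in any library, and how tags common to both were assigned is not known.

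SNRPD1 and SNRNP70 were the genes whose direction depended on the scaling. SNRPD1 had 99.1 and 123 CPM in 4SU with 365 nm, against 156 and 137 in 4SU alone. As a share of all tags it was therefore lower in both crosslinked libraries, with a log2 fold change of -0.41 on library totals (adjusted p = 0.336), while with TMM factors it was higher by 1.51 ± 0.35. SNRNP70, which encodes a U1 protein that binds the particle's RNA, had 339 and 623 CPM in 4SU with 365 nm, against 556 and 633 in 4SU alone. Its log2 fold change was 1.58 ± 0.39 with TMM factors and -0.32 with library totals (adjusted p = 0.455). The other U1 gene, SNRPC, whose protein stabilises pairing of U1 with the 5′ splice site, had 474 and 564 CPM in 4SU with 365 nm, against 346 and 221 in 4SU alone. SNRPC was higher on both scales, by 2.77 ± 0.42 with TMM factors and 0.86 with library totals.

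With library totals, 4 of the 9 genes rose past the test in this comparison (SNRPD2, SNRPD3, SNRPE and SNRPC), as did 7.42% of all tested genes, with a median log2 fold change of 0.74 over the 9. Together the 9 genes held 0.615% and 0.640% of all tags in 4SU with 365 nm, against 0.391% and 0.279% in 4SU alone. The plot of CPM gives every library.

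**Figure D2:**
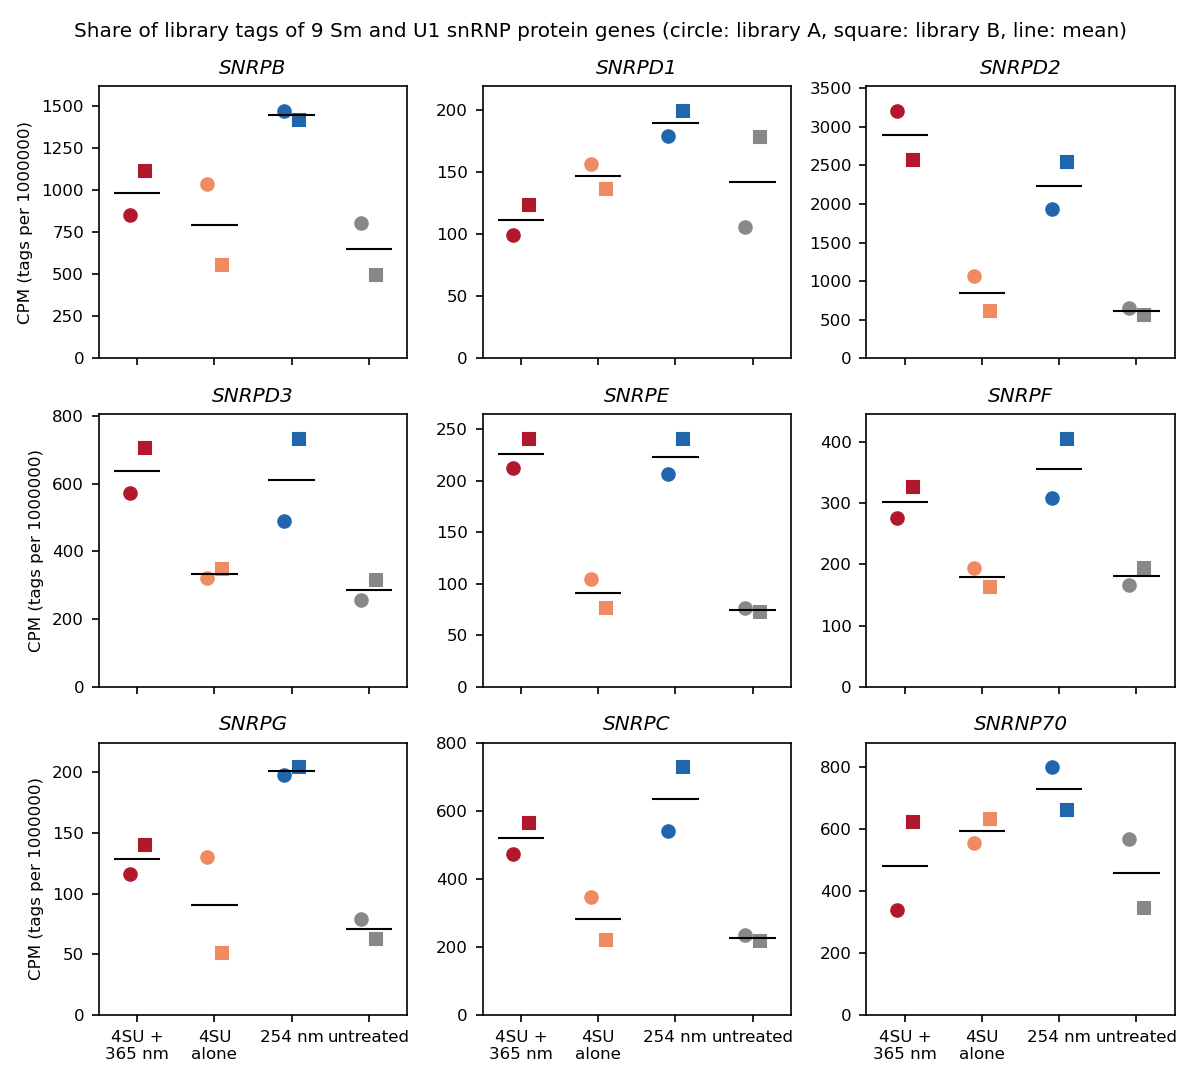
CPM (tags per 1000000 tags) of each of the 9 genes in the 8 libraries of the 4 duplicate groups, with library A as a circle, library B as a square and the mean as a line. SNRPD2 reaches 3209 in 4SU with 365 nm, against at most 1069 in 4SU alone, whereas SNRPD1 and SNRNP70 have lower means in 4SU with 365 nm than in 4SU alone.

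Crosslinking at 254 nm, without 4SU, also went with higher levels of the whole set. All 9 genes rose in 254 nm over untreated cells, with log2 fold changes of 1.29 to 2.78 and a median of 2.03, a 4.09-fold difference. Of all tested genes, 25.2% were higher and 28.0% lower, 3460 and 3849 genes with TMM factors, against 1384 and 6462 with library totals. For all 9 genes both libraries of 254 nm lay above both of untreated cells, normalised (35.7% of all tested genes) and as plain shares of the tags (18.3% of all). Together they held 0.613% and 0.713% of all tags in 254 nm, against 0.295% and 0.244% in untreated cells.

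SNRPD2 again had the largest fold change of the 9. It had 1936 and 2542 CPM in 254 nm, against 658 and 559 in untreated cells, a log2 fold change of 2.78 ± 0.50. SNRPE had 206 and 241 CPM in 254 nm, against 76.8 and 72.6 in untreated cells, and rose by 2.47 ± 0.37. Both genes were far outside the spread of their libraries. SNRPC, at 542 and 728 CPM in 254 nm against 235 and 216 in untreated cells, rose by 2.39 ± 0.41. SNRPG had 198 and 204 CPM in 254 nm, against 79.4 and 62.2 in untreated cells, and rose by 2.38 ± 0.38. For these 4 genes the increase also passed the test with library totals, at log2 fold changes of 1.49 to 1.88.

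The remaining Sm genes rose less. SNRPB had 1470 and 1414 CPM in 254 nm, against 802 and 493 in untreated cells, with a log2 fold change of 2.03 ± 0.45. SNRPD3 had 490 and 732 CPM in 254 nm, against 256 and 317 in untreated cells, with a log2 fold change of 2.002 ± 0.40. SNRPF had 308 and 405 CPM in 254 nm, against 167 and 195 in untreated cells, and rose by 1.88 ± 0.37. All of them passed the test with library totals as well.

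SNRPD1 and SNRNP70 had the smallest increases, as they had after 365 nm. SNRNP70 had 798 and 661 CPM in 254 nm, against 569 and 345 in untreated cells, a log2 fold change of 1.54 ± 0.39. SNRPD1 had 179.2 and 199.6 CPM in 254 nm, against 105.8 and 178.6 in untreated cells, so that the lower 254 nm library barely exceeded the higher untreated one. The log2 fold change of SNRPD1 was 1.29 ± 0.35 (adjusted p = 0.00181), and 1.02 (adjusted p = 0.0508) without 254 nm library B. With library totals 7 of the 9 genes passed, beside 10.1% of all tested genes, all but SNRPD1 at 0.41 and SNRNP70 at 0.67. The plot of fold changes sets the scalings side by side.

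**Figure D3:**
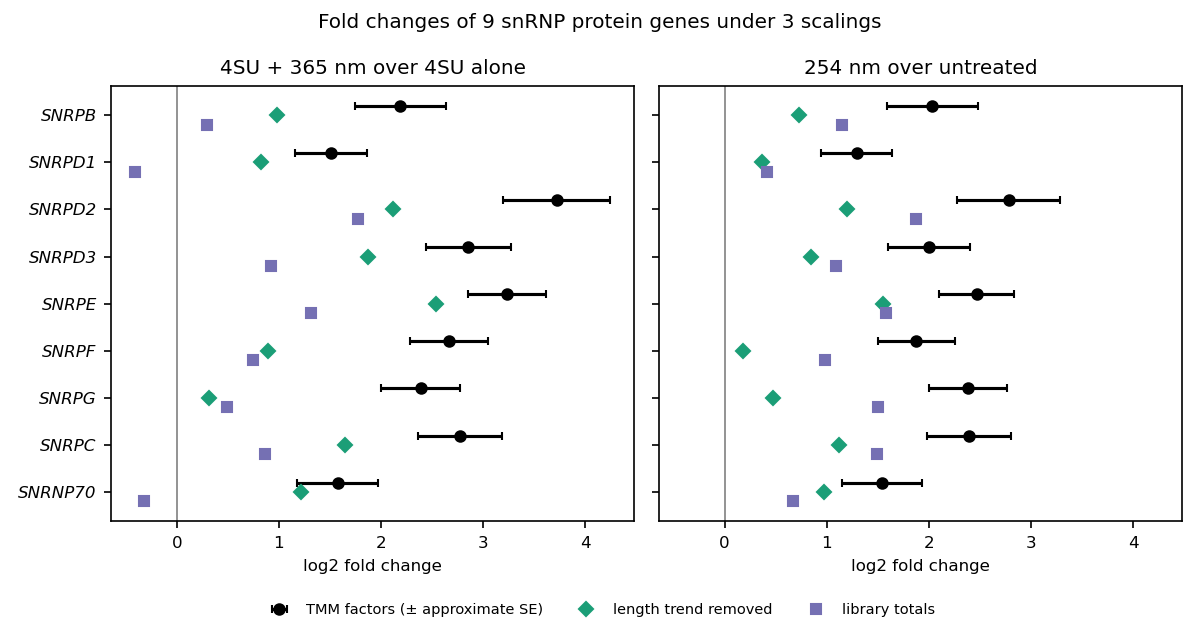
Log2 fold change of each gene in 4SU with 365 nm over 4SU alone (left) and in 254 nm over untreated cells (right), with TMM factors (black, bars of 1 approximate SE), after removal of the trend with transcript length (green) and with library totals (violet). All black points lie between 1.29 and 3.72, while the violet points of SNRPD1 and SNRNP70 lie below 0 on the left.

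Transcript length moved with these results. The 9 transcripts were 606 to 1940 nt long, with a median of 1231 nt, and all 9 were shorter than the median tested transcript of 2753 nt. With TMM factors, shorter transcripts had higher median fold changes over all tested genes. In 4SU with 365 nm over 4SU alone, the median log2 fold change was 2.09 for 508 genes under 700 nt, 1.77 for 742 genes of 700 nt to under 1000 nt, and 0.99 for 1394 genes of 1000 nt to under 1500 nt. It was -0.04 for 3466 genes of 1500 nt to under 2500 nt and -1.12 for 7621 genes of 2500 nt and over. In 254 nm over untreated cells, the same medians were 1.89, 1.75, 1.33, 0.52 and -0.89.

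Each of the 9 genes exceeded the median of its own length class in both comparisons. SNRPG (606 nt), the only one under 700 nt, had log2 fold changes of 2.39 at 365 nm, where the class median was 2.09, and 2.38 at 254 nm, where it was 1.89. SNRPE (1593 nt), SNRPD1 (1614 nt) and SNRNP70 (1940 nt) all lay above the upper quartile of their class, which was 1.20 at 365 nm and 1.27 at 254 nm. SNRPF (806 nt) lay below the upper quartile of its class in both comparisons, and SNRPD2 (882 nt) above it. In the class between, SNRPC (1231 nt) and SNRPD3 (1385 nt) lay above the upper quartile in both comparisons, and SNRPB (1153 nt) did so at 254 nm and not at 365 nm.

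When the trend with length was removed from the counts, 8 of the 9 genes rose past the test in 4SU with 365 nm over 4SU alone, beside 23.2% of all tested genes, at a median log2 fold change of 1.22. SNRPG was the exception at 0.32 (adjusted p = 0.364). SNRPE then had the largest value at 2.54, ahead of SNRPD2 at 2.11. In 254 nm over untreated cells, 5 of the 9 passed, SNRPD2, SNRPD3, SNRPE, SNRPC and SNRNP70, beside 17.3% of all tested genes, at a median over the 9 of 0.84. SNRPB at 0.73, SNRPG at 0.48, SNRPD1 at 0.36 and SNRPF at 0.18 did not pass. Over the 9 genes, length and log2 fold change had a Pearson r of -0.45 at 365 nm and -0.55 at 254 nm, as a description over genes that share the same libraries.

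**Figure D4:**
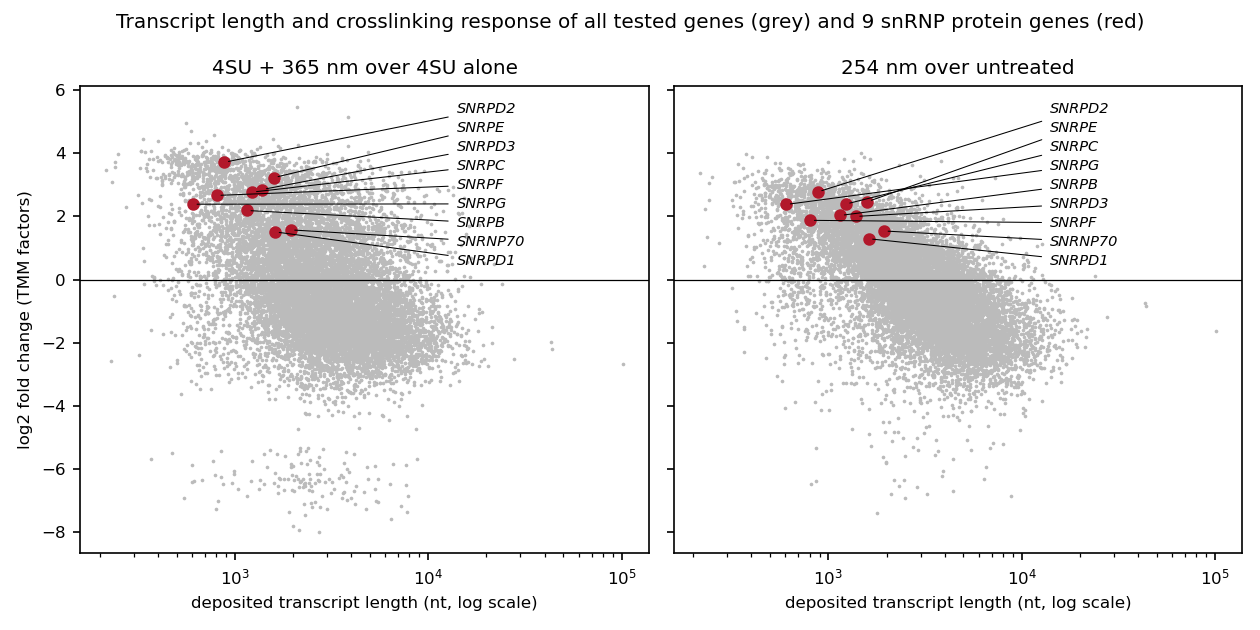
Log2 fold change with TMM factors against deposited transcript length (log axis) for all 13731 tested genes (grey) and the 9 snRNP protein genes (red, labelled), for 4SU with 365 nm over 4SU alone (left) and 254 nm over untreated cells (right). The red points lie between 606 and 1940 nt, all above 0 with these factors. Grey points under 1500 nt are also mostly above 0. Those of 1500 nt to under 2500 nt have a median of -0.04 on the left and 0.52 on the right.

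4SU alone did not move any of the 9 past the test. In 4SU alone over untreated cells, 0 of the 9 genes passed (edgeR), 0 had an unadjusted p under 0.05 and 0 passed in DESeq2, while 7.54% of all tested genes passed in either direction. Log2 fold changes ran from -0.04 for SNRPF to 0.46 for SNRPD2, with a median of 0.29. The 95% intervals allow sizeable differences in either direction, for example -0.50 to 1.41 for SNRPD2, -0.58 to 1.16 for SNRPB and -0.68 to 0.70 for SNRPD1.

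The spread between the 4SU libraries was large for some genes. SNRPG had 130 and 51.1 CPM in 4SU alone, against 79.4 and 62.2 in untreated cells. SNRPB had 1034 and 552 in 4SU alone, against 802 and 493 in untreated cells. In both cases the libraries treated with 4SU alone lay on either side of at least 1 untreated library. SNRPE, at 105 and 76.6 CPM in 4SU alone against 76.8 and 72.6 in untreated cells, had closer replicates and a log2 fold change of 0.26 ± 0.35.

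The crosslinked groups were also compared with each other, which sets 4SU with 365 nm against 254 nm directly. Of the 9 genes, 3 were higher in 4SU with 365 nm (SNRPD2, SNRPD3 and SNRPE), where 15.2% of all tested genes were higher. The log2 fold changes were 1.40 ± 0.48 for SNRPD2 (adjusted p = 0.0256), 1.04 ± 0.39 for SNRPD3 (adjusted p = 0.0439) and 1.02 ± 0.35 for SNRPE (adjusted p = 0.0250, edgeR). DESeq2 called 4, SNRPF in addition at 0.93 (adjusted p = 0.0344). The median over the 9 was 0.70.

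These calls did not hold under every setting. With library totals 0 of the 9 passed and the median was -0.29, as the plain CPM show. SNRPE had 212 and 241 in 4SU with 365 nm and 206 and 241 in 254 nm. SNRPD3 had 572 and 705 in 4SU with 365 nm, against 490 and 732 in 254 nm. On this scale only SNRPD2, with 3209 and 2569 in 4SU with 365 nm against 1936 and 2542 in 254 nm, lay above the other group in both libraries. Without 254 nm library A, or without 4SU with 365 nm library A, 0 of the 9 passed, and without 4SU with 365 nm library B only SNRPD2 did.

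The difference between the crosslinking effects was tested as an interaction, the change of 4SU with 365 nm over 4SU alone minus the change of 254 nm over untreated cells. It passed for 0 of the 9 genes (edgeR), 0 had an unadjusted p under 0.05 and 0 passed in DESeq2, beside 17.1% of all tested genes in either direction. With TMM factors the differences ran from 0.01 for SNRPG to 0.94 for SNRPD2, with a 95% interval of -0.41 to 2.29 for SNRPD2. With library totals all 9 were negative, with a median of -0.63.

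Genes that act with the Sm and U1 proteins were described from lists by role, for 4SU with 365 nm over 4SU alone and 254 nm over untreated cells. Values are with TMM factors unless another setting is named. The LSm proteins are relatives of the Sm proteins that ring U6 RNA or decaying mRNA. Of 8 tested, 5 rose and 1 fell at 365 nm and 7 rose at 254 nm, with medians of 1.66 and 1.57, which were -0.27 and 0.70 with library totals. With the length trend removed 4 rose and 2 fell at 365 nm and the 7 calls at 254 nm were lost, with medians of 0.33 and 0.40. LSM4, at 3.12 ± 0.43 in the 365 nm comparison, and LSM7, at 2.70 ± 0.39 in the 254 nm comparison, were the highest of the list and were positive with library totals too. LSM11, a component of the U7 particle that processes histone mRNA, was the lowest. It fell at 365 nm, by 1.48 on the log2 scale, and stood at -0.41 ± 0.49 at 254 nm without passing the test, with under 8 normalised CPM in every library of these groups.

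U2 snRNP proteins, which recognise the branch point, had lower medians than the LSm list. Of 12 tested, 2 rose and 1 fell at 365 nm, with a median of 0.08, and 7 rose and 2 fell at 254 nm, with a median of 0.92. With library totals these medians were -1.83 and 0.05. Removal of the length trend left 1 rising and 3 falling at 365 nm, and 3 rising and 0 falling at 254 nm. The medians were then -0.04 and 0.19. SF3B5, one of its smallest subunits, had 1142 and 1199 normalised CPM in 4SU with 365 nm, against 297 and 136 in 4SU alone, on a transcript of 786 nt. SF3B1, the large subunit that contacts the branch point, had 92.2 and 97.2 in 254 nm, against 164 and 325 in untreated cells, a log2 fold change of -1.37 ± 0.37.

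For the SMN complex and the enzymes that methylate Sm proteins, 3 rose and 3 fell of 11 tested at 365 nm, and 4 rose and 1 fell at 254 nm, with medians of 0.42 and 0.60, or -1.46 and -0.27 with library totals. Removal of the length trend left 2 rising and 5 falling at 365 nm, and 2 rising and 1 falling at 254 nm. The medians were then -0.21 and 0.05. WDR77, a partner of the methyltransferase PRMT5, rose by 2.38 ± 0.35 at 365 nm. GEMIN5, the subunit that recognises the snRNA, fell by 2.11 on the log2 scale at 365 nm and fell by 1.20 at 254 nm. Of 15 U4/U6 and U5 proteins, 7 rose and 5 fell at 365 nm and 5 rose and 2 fell at 254 nm, with medians of 0.54 and 0.43, or -1.33 and -0.42 with library totals. After removal of the length trend, 7 rose and 4 fell at 365 nm, and 4 rose and 1 fell at 254 nm. These medians were 0.39 and 0.43. SNRNP200, the U5 helicase, had 1739 and 2125 normalised CPM in 4SU with 365 nm against 326 and 433 in 4SU alone, but 267 and 260 in 254 nm against 457 and 538 in untreated cells. Its transcript is 7184 nt long, and with the length trend removed it was 3.27 at 365 nm and 0.43 at 254 nm, the second of which missed the threshold (adjusted p = 0.264).

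U11/U12 proteins of the minor spliceosome split in both directions, with 3 rising and 2 falling of 7 at 365 nm and 3 rising and 1 falling at 254 nm. Their medians were 0.31 and 0.54, or -1.62 and -0.35 with library totals. After removal of the length trend, 2 rose and 1 fell at 365 nm, and 2 rose and 2 fell at 254 nm. These medians were -0.09 and -0.16. SNRNP25 rose by 3.06 ± 0.37 at 365 nm and 2.40 ± 0.36 at 254 nm, while SNRNP48 fell by 1.29 at 365 nm and fell by 2.27 at 254 nm. Of 7 factors that export snRNAs to the cytoplasm or import the particles, 1 rose and 3 fell at 365 nm, where 26.1% of all genes rose and 33.8% fell, and 1 rose and 4 fell at 254 nm, with medians of -0.33 and -1.25, or -2.22 and -2.10 with library totals. TGS1, which adds further methyl groups to the snRNA cap, fell by 3.07 at 365 nm, with 1.12 and 2.80 normalised CPM in 4SU with 365 nm against 18.8 and 17.7 in 4SU alone. XPO1, the export receptor, fell by 1.82 at 365 nm and fell by 2.17 at 254 nm. The median transcript length of this list was 3708 nt and that of the Sm ring list 1153 nt. With the length trend removed, the median of the export and import list was -0.81 at 365 nm and -0.85 at 254 nm, and that of the Sm ring 0.98 and 0.73. Calls of single genes named from these lists that were lost with the length trend removed were SF3B5 (adjusted p = 0.0539), LSM11 (adjusted p = 0.0583) and SNRNP48 (adjusted p = 0.109) at 365 nm. At 254 nm they were SF3B1 at -0.54 (adjusted p = 0.201), GEMIN5 at -0.13 (adjusted p = 0.783), LSM7 at 0.68 (adjusted p = 0.0575) and SNRNP200 as above.

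The HEK293 markers gave no common direction in the same libraries. Of 5 tested, 3 rose and 1 fell at 365 nm, and 1 rose and 1 fell at 254 nm. Shares over all tested genes are those given with the related lists. IRS4 fell by 3.56 at 365 nm and fell by 2.15 at 254 nm, and KRT18 rose by 1.52 and 2.28, the first of which was -0.36 with library totals and missed the threshold with the length trend removed (adjusted p = 0.0716). Their part in the values above was not tested.

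The profile of the 9 genes over the 8 libraries was shared widely. Each gene's log2 level had a Pearson r of 0.938 (SNRNP70) to 0.999 (SNRPC) with the mean of the other 8 genes. The 5 genes most like the mean profile were AK096147, PSMB6, DPCD, AF150733 and MRPL11, with r of 0.9971 to 0.9991. PSMB6 encodes a proteasome subunit and MRPL11 a mitochondrial ribosomal protein. Among 6856 genes above the median expression, 910 (13.3%) had an r above 0.95, so this likeness was common. These correlations describe 8 libraries in 4 groups and rest on the same TMM factors.

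Knockdown of HuR was given by 1 library per siRNA and has no replicate check. ELAVL1 itself had 638 tags with HuR siRNA and 1905 with GFP siRNA, or 70.8 and 219 CPM, a log2 ratio of -1.53 (95% exact binomial counting interval -1.66 to -1.40). Of the 9 snRNP genes, 5 were more than 1.5-fold higher with HuR siRNA, where 19.2% of the 17798 genes with at least 10 tags were, and none was lower by as much. The median log2 ratio was 0.63 over the 9 genes and 0.01 over all genes. Together the 9 genes held 0.371% of tags with HuR siRNA and 0.240% with GFP siRNA.

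SNRPB had the highest ratio, with 626 CPM with HuR siRNA and 336 with GFP siRNA, a log2 ratio of 1.00 (0.94 to 1.07). SNRNP70 had 845 CPM with HuR siRNA and 498 with GFP siRNA, a log2 ratio of 0.87 (0.81 to 0.92). SNRPD2, at 907 and 541, had a ratio of 0.85 (0.80 to 0.90) in the same order, HuR siRNA over GFP siRNA. These 3 genes were the most abundant of the set by tags in the HuR siRNA library. SNRPC was at 0.76 (0.66 to 0.86) and SNRPF at 0.63 (0.55 to 0.72). SNRPF passed the 1.5-fold line only narrowly, at 1.55-fold, and did not pass it with library totals. On that scale 4 of the snRNP genes passed the line, and the share of all genes past it is not given here.

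The other Sm genes differed less between the siRNA libraries. SNRPD3 had 400 CPM with HuR siRNA and 307 with GFP siRNA, a log2 ratio of 0.48 (0.41 to 0.56). SNRPD1 was at 0.20 (0.10 to 0.29) and SNRPE at 0.16 (0.02 to 0.30). For SNRPG, with 441 tags against 405.5, the interval of -0.03 to 0.37 spanned 0. Intervals cover counting error only and say nothing of the spread between cultures.

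Length moved with the siRNA ratios too, though less. The median log2 ratio was 0.27 for genes under 700 nt, 0.32 from there to under 1000 nt, 0.24 to under 1500 nt, 0.12 to under 2500 nt and -0.19 for 2500 nt and over. In the class of 1000 nt to under 1500 nt, which holds SNRPB, SNRPC and SNRPD3, 28.0% of genes were more than 1.5-fold higher. This share was 34.5% from 700 nt to under 1000 nt, the class of SNRPD2 and SNRPF, and 32.8% under 700 nt, that of SNRPG. It was 22.3% from 1500 nt to under 2500 nt, the class of SNRPD1, SNRPE and SNRNP70. Among related lists, the median ratio was 0.25 for U2 proteins, 0.23 for LSm proteins, 0.27 for the SMN complex list, 0.33 for U4/U6 and U5 proteins, -0.15 for U11/U12 proteins and -0.35 for export and import factors. The order of the ratios within the set was unlike that after crosslinking: SNRPE, second highest at 365 nm and 254 nm, was lowest in the siRNA pair, and SNRNP70, second lowest after both kinds of crosslinking, was second highest. These orders were not tested against each other.

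**Figure D5:**
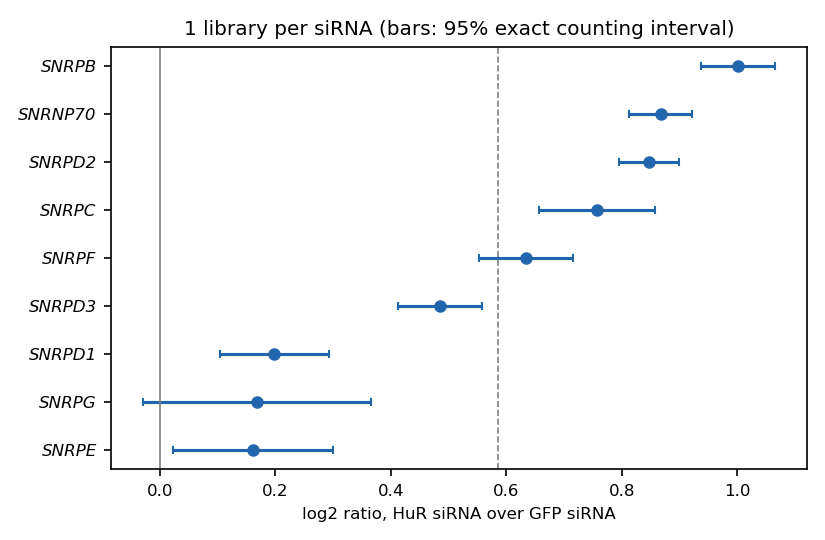
Log2 ratio of HuR siRNA over GFP siRNA for the 9 genes, 1 library per siRNA, with bars for the 95% exact counting interval, a solid line at 0 and a dashed line at 1.5-fold. SNRPB is highest at 1.00, and the interval of SNRPG is the only one that spans 0.

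Some values carry a counting limit. Some deposited counts were fractional, and the counting rule for tags that match several transcripts is not given in the sources used here. Fractional tags occurred for SNRPE and SNRPC in 7 of 10 libraries, for SNRPG in 6 and for SNRPD1 and SNRPD2 in 4. They occurred for SNRPD3 in 3, for SNRPB in 2 and for SNRPF in 1. SNRNP70 had whole tags in all 10 libraries. Levels of genes with near-identical copies are uncertain to the extent that tags were split, and that extent was not tested.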

How the data were processed

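The series measured polyadenylated RNA of HEK293 cells in 10 libraries. The authors deposited, per the file headers, expected counts of tags per transcript, with the transcript length. These counts are not normalized and are fractional for some transcripts. Which aligner, genome build and annotation were used is not given in the sources used here. Accessions were named from a RefSeq table (15884 of 25005 transcripts) and from GENCODE (136), and 8985 stayed unnamed. Expected counts were summed per gene and rounded to whole tags.

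The 8 libraries of the duplicate groups were fitted in 1 quasi-likelihood model (edgeR 4.0.16, R 4.3.3) that had group means, TMM factors and the filterByExpr filter. There were 5 two-sided contrasts over 13731 genes, with Benjamini-Hochberg adjustment and calls at an adjusted p under 0.05. Each gene's variance was drawn towards that of all genes, with a median of 39.99 prior against 4 residual degrees of freedom. The approximate SE is the size of the log2 fold change over the square root of F. CPM are plain tags per 1000000 tags of the library, without TMM factors. Normalised CPM are CPM adjusted by the TMM factor. Levels per transcript length are means of normalised CPM over that length, with the SD of 2 libraries where given. The fitting step was run on simulated counts in which few genes changed, up and down alike. That simulation does not bear on the choice of scaling or on the length trend. Depth was 2238569 to 3099769 tags per library, where 3 tags equal 0.968 to 1.34 CPM.

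The siRNA pair, 1 library each, had no test: ratios used TMM factors and exact binomial 95% counting intervals, and genes had at least 10 tags over the pair. The genes, related lists and length classes were chosen with earlier results of these data known. Named genes outside the set were the 2 highest and 2 lowest of each list, the 5 most alike in profile, ELAVL1 and SNRPN. Promoters came from a RefSeq table of GRCh38.p14, used where the window lay wholly outside the gene.

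Alternatives were library totals, RLE factors, upper-quartile factors, DESeq2 1.42.0, a minimum of 5 CPM, no filter, a fit of only the groups compared, a replicate block, removal of the length trend by an offset, an adjusted p under 0.01 and leaving out each library. No label gives a batch.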

Additional observations from a re-analysis of the deposited data

How the results depend on the processing

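The increases of the 9 genes after crosslinking passed the test in every alternative run except library totals, the length correction and 1 left-out library (SNRPD1 without 254 nm library B). Library totals left 4 genes at 365 nm, where SNRPD1 reversed to -0.41 and SNRNP70 to -0.32, and the length correction left 5 at 254 nm. Leaving out each library gave 9 calls throughout at 365 nm and 8 to 9 at 254 nm. In 4SU with 365 nm against 254 nm, 0 genes passed with library totals, 0 at an adjusted p under 0.01, and 0 to 3 when a library was left out. With no filter 2 passed, SNRPD3 being lost (adjusted p = 0.0564, edgeR). There SNRPB was -0.56, SNRPD1 -0.77, SNRPF -0.25, SNRPG -0.65, SNRPC -0.29 and SNRNP70 -0.60 with library totals, SNRPG was -0.14 with the length correction, and SNRPD1 ranged from -0.0031 to 0.49 with a library left out. The 2-fold line in place of 1.5-fold left 1 gene in the siRNA pair, SNRPB at 2.002-fold. The share of all genes past that line is not given here. The cause of these changes was not tested.

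Other values changed sign without any call. For 4SU alone, SNRPD1 was -0.0084 with DESeq2, -0.0083 with RLE factors, -0.16 with the length correction and -0.033 with no filter, and SNRPF was 0.019 with upper-quartile factors. Leaving out a library gave ranges of -0.37 to 0.73 for SNRPB, -0.35 to 0.45 for SNRPD1, -0.13 to 0.86 for SNRPD2, -0.10 to 0.53 for SNRPE, -0.28 to 0.14 for SNRPF, -0.61 to 0.92 for SNRPG and -0.17 to 0.66 for SNRPC. For the difference of the crosslinking effects, library totals gave -0.85 for SNRPB, -0.82 for SNRPD1, -0.10 for SNRPD2, -0.17 for SNRPD3, -0.27 for SNRPE, -0.23 for SNRPF, -1.001 for SNRPG, -0.63 for SNRPC and -0.99 for SNRNP70. The length correction gave -0.16 for SNRPG. Leaving out a library gave -0.28 to 0.81 for SNRPB, -0.23 to 0.57 for SNRPD1, -0.57 to 0.96 for SNRPG and -0.33 to 0.34 for SNRNP70.

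With the replicate letter as a block, 9 genes passed at 365 nm, 9 at 254 nm, 0 for 4SU alone and 3 in 4SU with 365 nm against 254 nm, so that no call of a gene count changed. The differences of A minus B correlated between groups at -0.08 to 0.35, not above 0.1 for every pair of groups. The highest value was between 4SU alone and untreated cells, the groups set against each other for 4SU alone. The letters were not taken as pairing, since no label says that a letter marks a shared culture or day. Across all genes the block moved 4SU alone to 862 higher and 831 lower, against 528 and 507 without it. Over all alternatives that keep the 8 libraries, all-gene counts ran from 1019 to 4027 higher and 2822 to 9965 lower at 365 nm, and from 1384 to 3686 higher and 2510 to 6462 lower at 254 nm. For 4SU with 365 nm against 254 nm, 2092 were higher and 1712 lower, against as few as 631 higher and a range of 862 to 5885 lower. For the difference of the crosslinking effects, 1372 were higher and 973 lower, with ranges of 494 to 1673 and 258 to 4459. With a library left out, counts lower were 2376 to 5069 at 365 nm, up to 4219 and at fewest just under 2510 at 254 nm, and 50 to 1397 for 4SU alone, and counts higher for 4SU alone were 188 to 1290. With 2 libraries per group, leaving one out leaves 1 sample, taken to vary as the other groups do.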
